A study of Rattus norvegicus with 12 samples.

Results

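The genes of the mitochondrial oxidative phosphorylation complexes were examined in cells of the rat cervix before and during pregnancy, with and without macrophages (Mφs). Members were all probes for genes, not controls, whose gene name begins with Nduf, Uqcr or Atp5, begins with Cox followed by a digit from 4 to 8, or is Sdha, Sdhb, Sdhc or Sdhd. The rule found 109 probes of 30367 on the array, for 87 genes of 26572. By complex, 39 genes were named for complex I, 4 for complex II, 7 for complex III, 15 for complex IV and 15 for complex V. The 39 include Ndufa13-ps, by its symbol a pseudogene, which was tested in no comparison. The rule also took in 4 complex I assembly factors (Ndufaf1 to Ndufaf4) and 3 other genes that carry such a name but encode no subunit (Atp5s, Atp5sl and Cox4nb). Ndufa4 keeps its complex I name here, although its protein is now placed in complex IV.

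Oxidative phosphorylation takes place in the inner mitochondrial membrane. Complexes I and II pass electrons from NADH and succinate to ubiquinone, complex III passes them to cytochrome c, and complex IV, cytochrome c oxidase, passes them to oxygen. Complexes I, III and IV pump protons, and complex V, the ATP synthase, uses their return to make ATP. All members are encoded in the nucleus, and some complex IV subunits exist as a widely expressed isoform and a second isoform that is best known from heart and skeletal muscle, lung or brown fat.

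Total RNA of cervix cells was hybridised to 12 one-colour Agilent rat arrays, 1 rat per array and 3 per group. Donors were Sprague Dawley rats, either nonpregnant at proestrus (NP) or at day 21 after breeding, before parturition (D21). After perfusion the cervix was trimmed and dispersed with collagenase. In the depleted groups, cells bound by the ED1 antibody were taken out with magnetic beads, while whole-cervix cells of other rats were frozen without the bead steps, so depletion and bead handling cannot be told apart.

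Values are log2 signals minus that array's 75th percentile, so 0 stands for that percentile and a difference of 1 is 2-fold; A against B is A minus B. The arrays came from 4 slides and 3 days of scanning, which were not spread evenly over the groups. All whole-cervix arrays were scanned on day 3, on slides 3 and 4, with every D21 whole array on slide 4. Of the depleted arrays only NP rat 7 and D21 rat 4 were scanned that day, on slide 3. Depletion, scan day and slide therefore cannot be fully told apart. Of all probes 44.9% to 61.8% were well above background, and of the 109 member probes 95 to 106 were. Defining Mφ genes were present and mostly lower after depletion: the mean signal of 15 Mφ markers ranged from 1.45 to 2.10 in NP whole cervix and 1.89 to 2.02 in D21 whole cervix, against -3.05 to -3.03 and -3.15 to -2.14 in the depleted groups. By p and fold 12 of 14 tested were higher in whole cervix of NP rats and 13 of 15 in D21 rats. Cd68, whose product the ED1 antibody binds, and Cd14 passed in neither: Cd68 read 0.23, 1.32 and 0.68 in D21 whole and 1.04, -0.33 and 1.96 in D21 depleted cervix. Markers of some other cell types were lower in the depleted groups too: 10 smooth muscle genes ranged from 4.40 to 4.84 in NP whole cervix and from -0.09 to 0.40 in NP depleted cervix. In such bulk samples, fewer cells of a type and less RNA per cell cannot be told apart.

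Of the 87 member genes, 77 were well above background on all 12 arrays and 10 on fewer. A comparison tested the genes whose probe exceeded background clearly on every array of one group or the other, and 5 genes (Ndufaf2, Cox7c, Cox8c, Ndufa13-ps and Uqcrq) were tested in none. Each gene was represented by its brightest probe. Among 15 genes with more than 1 tested probe, probes pointed in opposite directions in 1 gene for NP whole against depleted cervix and in 4 or 5 genes in each other comparison. Second probes passed a threshold where the probe used did not, or beside it, in 6 genes. For example, the probe used for Ndufs4, a complex I subunit, differed by 0.58 between whole and depleted NP cervix and its second probe by 1.84 (limma p adjusted over probes = 0.0116). Atp5h, of the ATP synthase peripheral stalk, had an outlier spot on 1 NP whole array, which the fit left out for that gene.

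The complexes as a whole differed little between the groups. With each of the 77 genes centred on its mean over the arrays, the median over genes was 0.37, 0.16 and 0.20 on the NP whole arrays and -0.14, -0.06 and -0.12 on the D21 whole arrays. In the depleted groups it was 0.10, -0.28 and -0.06 in NP rats and -0.05, 0.26 and -0.35 in D21 rats. All NP whole arrays therefore lay above all D21 whole arrays, while the depleted arrays spread from -0.35 to 0.26. Over all 10924 genes well above background on every array, the same medians lay between -0.10 and 0.17.

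**Figure D1:**
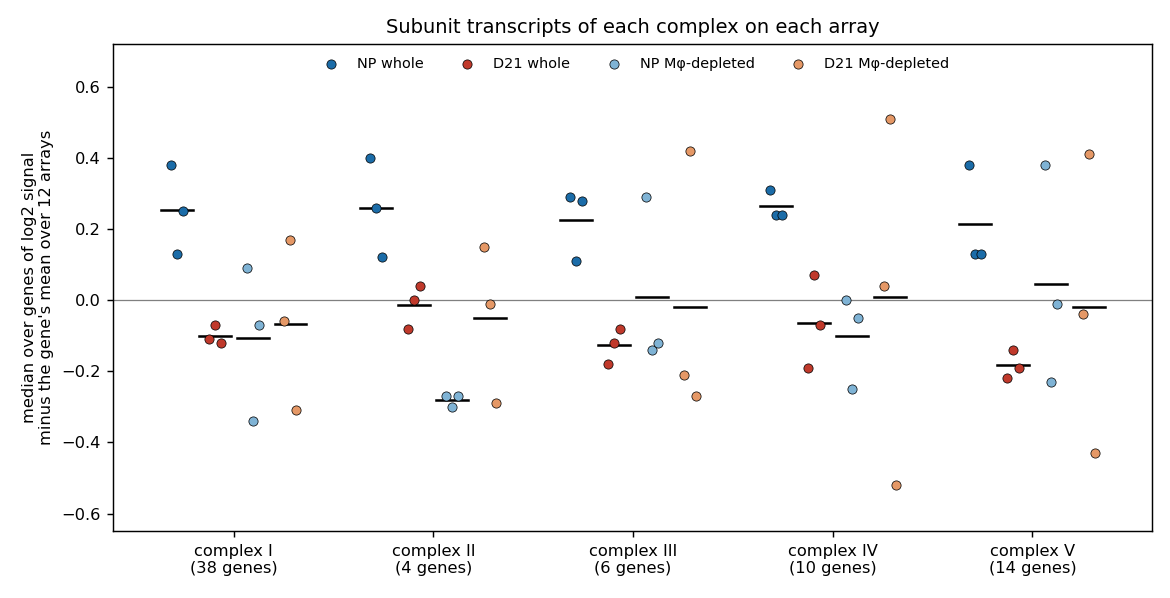
Median log2 signal of the subunit genes of each complex on each array, after each gene was centred on its mean over the 12 arrays. Points are arrays, lines are group means, and the panels hold 38, 4, 6, 10 and 14 genes for complexes I to V. In each complex the mean of the NP whole arrays is the highest and the D21 depleted arrays spread the most.

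The first comparison asked how the members differed between D21 and NP whole cervix. Most lay slightly lower at D21, and no gene passed a threshold by its brightest probe. Of 82 genes tested, 76 (92.7%) had a lower mean at D21, against 55.5% of all genes tested, and their median difference was -0.35 on the log2 scale, against -0.08 (-0.36 against -0.27 with no filter on background). By the threshold of the study's methods, an unadjusted p below 0.01 with at least 2-fold, 0 members were higher or lower, against a background of 5.38% of all genes higher and 3.09% lower. By the limma adjusted p below 0.05, 0 members passed as well (background 3.94% higher and 1.93% lower). At an unadjusted p below 0.05, 13 were lower and 1 was higher, and the methods' t-test at its threshold called 1 lower, Cox6a2. The second probe of Uqcrb, a complex III subunit, was lower at D21 (-0.83, limma p adjusted over probes = 0.0456). On all 3 D21 arrays 51 members lay below all 3 NP arrays and 2 lay above them, 65.4% of the members without overlap against 44.3% of all genes (20% higher and 24.3% lower).

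The shift was of like size in each complex. Complex V had a median difference of -0.47, with 15 of 15 genes lower at D21, and complex I had -0.35, with 35 of 38 lower. Complexes II, III and IV had medians of -0.27, -0.36 and -0.38, with 4 of 4, 6 of 6 and 11 of 13 genes lower. The assembly factors had a median of -0.41, with 3 of 3 lower. Among genes measured on all arrays, the lowest differences within a complex belonged to Ndufb4l1 (-1.36), Sdhb (-0.60), Uqcrh, a hinge protein of complex III (-0.53), Cox6c (-0.68) and Atp5c1 (-0.64). The highest were those of Ndufa1 (0.27), Sdha (-0.14), Uqcrc1 (-0.01), Cox5a (0.03) and Atp5g3 (-0.14).

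Atp5c1 encodes the gamma subunit, the rotating central stalk of the ATP synthase. Its signal was 4.03, 3.67 and 3.79 in NP whole cervix and 3.14, 3.25 and 3.19 at D21. Cox6c, an accessory subunit of complex IV, read 6.42, 6.15 and 6.36 in NP and 5.40, 5.83 and 5.65 at D21. In both genes every D21 array lay below every NP array. Ndufv2, an iron-sulfur core subunit of the NADH-oxidising module of complex I, read 4.55, 4.08 and 4.54 in NP and 3.63, 3.90 and 3.53 at D21, again without overlap (difference -0.70 ± 0.24 SE, adjusted p = 0.11). Ndufa1, a small accessory subunit of complex I, ran the other way, at 4.57, 4.62 and 4.52 in NP and 4.73, 4.85 and 4.94 at D21.

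The 4 genes of complex II, succinate dehydrogenase, show how small these differences were. Sdha, the flavoprotein that oxidises succinate, read 3.03, 3.12 and 3.02 in NP whole cervix and 2.88, 2.89 and 3.00 at D21. Sdhb, the iron-sulfur subunit, read 3.13, 2.62 and 2.99 in NP and 2.24, 2.39 and 2.31 at D21 (adjusted p = 0.141). The groups did not overlap in either gene. The membrane anchors Sdhc and Sdhd read 2.16, 2.02 and 1.61 against 1.66, 1.71 and 1.64, which overlapped, and 2.88, 2.89 and 2.77 against 2.47, 2.54 and 2.68, which did not. Within the slide that held 3 D21 and 1 NP whole array the median difference of the members was -0.37, with 70 genes lower at D21 and 11 higher. With slide as a block it was also -0.37. As all D21 whole arrays were on that slide, this fit rests on the same 1 NP array and is no separate check.

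**Figure D2:**
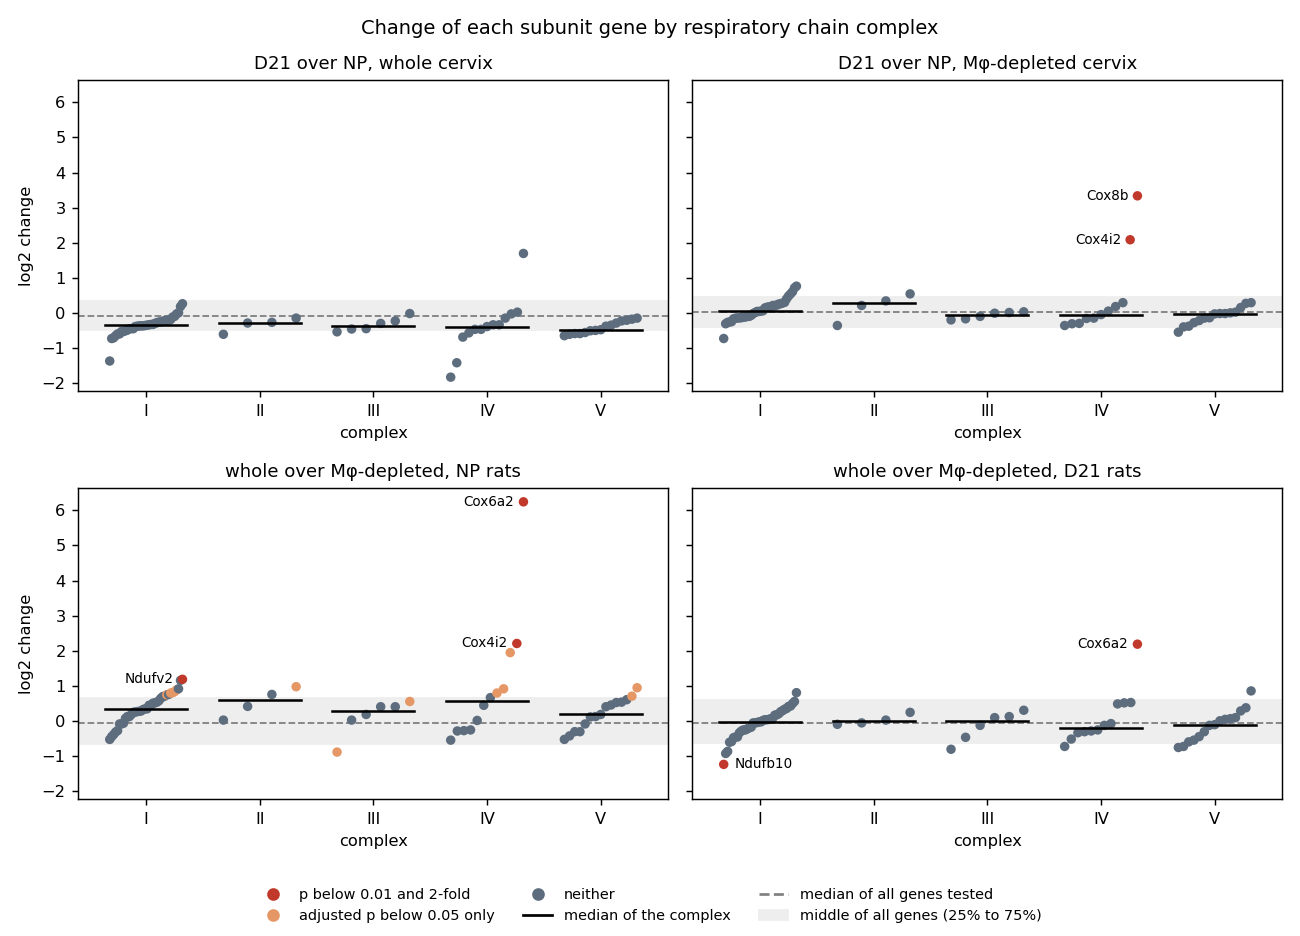
Log2 difference of each subunit gene tested, by complex, in each of the 4 comparisons of groups. Red points passed an unadjusted p below 0.01 with 2-fold, orange points passed the adjusted p below 0.05 only, the grey band spans the middle 50% of all genes tested and the dashed line is their median. Most points lie below the dashed line for D21 against NP whole cervix and above it for whole against depleted NP cervix.

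The second comparison, whole against Mφ-depleted cervix of NP rats, gave the most calls among the members, as it did among all genes. Of 80 members tested 3 were higher in whole cervix by p and fold, Cox6a2, Cox4i2 and Ndufv2, against a background of 13.6% of all genes, and 0 were lower, against 10.8% (at an unadjusted p below 0.05, 25 higher and 1 lower, and by the methods' t-test 0 lower). By the adjusted p below 0.05, 15 were higher (background 17%) and 1 was lower (background 15.8%). Few members were thus lower, and their direction was less even than that of all genes: 60 of 80 (75%) were above 0, against 48.6% of all genes, with a median of 0.38 against -0.04. Groups without overlap were found for 49.4% of the members, 32 higher and 7 lower, against 47.1% of all genes (23% higher and 24.1% lower).

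Cox6a2, the heart and skeletal muscle isoform of subunit 6a, showed the widest difference. It read 0.77, 1.12 and 1.27 in NP whole cervix and -5.36, -4.95 and -5.24 in NP depleted cervix, where 0 of 3 arrays were well above background. The measured means were 1.05 ± 0.25 and -5.18 ± 0.21 (SD, n = 3), and, set against the detection limit, Cox6a2 was higher in whole cervix by at least 43.8-fold (adjusted p = 2.2e-05, limma).

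Cox4i2, the isoform of subunit 4 best known from lung, read 1.90, 1.75 and 1.80 in whole and -0.72, -0.76 and 0.30 in depleted NP cervix. No depleted array came near the whole-cervix range, and the difference was 2.21 ± 0.40 SE (adjusted p = 0.00175). Ndufv2 read 4.55, 4.08 and 4.54 in whole and 3.34, 2.91 and 3.33 in depleted cervix, a difference of 1.19 ± 0.24 (adjusted p = 0.00297). The methods' t-test did not call Cox4i2 (adjusted p = 0.103, over the alternatives 0.000706 to 0.103).

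The 15 genes that were higher by the adjusted p spread over the complexes. Complex I gave 6 of 38: Ndufv2, Ndufb2 (0.89), Ndufs8, an iron-sulfur core subunit (0.84), Ndufc2 (0.81), Ndufa5 (0.80) and Ndufa2 (0.75). Complex IV gave 5 of 12: Cox6a2, Cox4i2, Cox6c1 (1.95), Cox6c (0.92) and Cox7b (0.80). Complex V gave 2 of 15, Atp5c1 (0.95) and the peripheral stalk gene Atp5j (0.71). Complex II gave 1 of 4, Sdhb (0.98), and complex III gave 1 of 6, Uqcrb (0.56), whose protein lies near the ubiquinone-binding site. Their adjusted p-values other than those of Cox6a2, Cox4i2 and Ndufv2 ran from 0.00573 for Sdhb to 0.0497 for Ndufa2.

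Sdhb read 3.13, 2.62 and 2.99 in whole and 1.93, 1.89 and 1.96 in depleted NP cervix, whereas Sdha, its partner in the same enzyme, read 3.03, 3.12 and 3.02 against 3.28, 3.07 and 2.72. The Sdhb groups were far apart and the Sdha groups overlapped. Uqcrc1, a core protein of complex III, was the gene that was lower in whole cervix: it read 3.60, 3.15 and 3.45 against 4.78, 3.95 and 4.11 in depleted cervix, a difference of -0.88 (adjusted p = 0.0303). Cox6c1 was well above background on 3 of 3 whole and 2 of 3 depleted arrays. The lowest differences among genes measured on all arrays of complexes I, IV and V were -0.52 for Ndufb10, -0.54 for Cox5b and -0.52 for Atp5g1, and none of these passed either threshold.

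The medians by complex were 0.35 for complex I, 0.59 for complex II, 0.30 for complex III, 0.56 for complex IV and 0.19 for complex V, with 30 of 38, 4 of 4, 5 of 6, 8 of 12 and 10 of 15 genes above 0. The count of 15 ran from 3 to 21 over the alternatives: it was 3 with the methods' t-test or normexp, 4 with no filter, 20 with quantile normalization and 21 with the percentile over detected probes. It was 6 without NP depleted rat 6, 5 without NP whole rat 8 and 7 without NP whole rat 10, and it was 5 with slide as a block. Within the slide that held 2 whole and 1 depleted NP array the median was 0.33, with 63 of 80 genes above 0, and Cox4i2 and Ndufv2 differed by 1.53 and 0.98, while the Cox6a2 signal was not well above background on the depleted array.

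**Figure D3:**
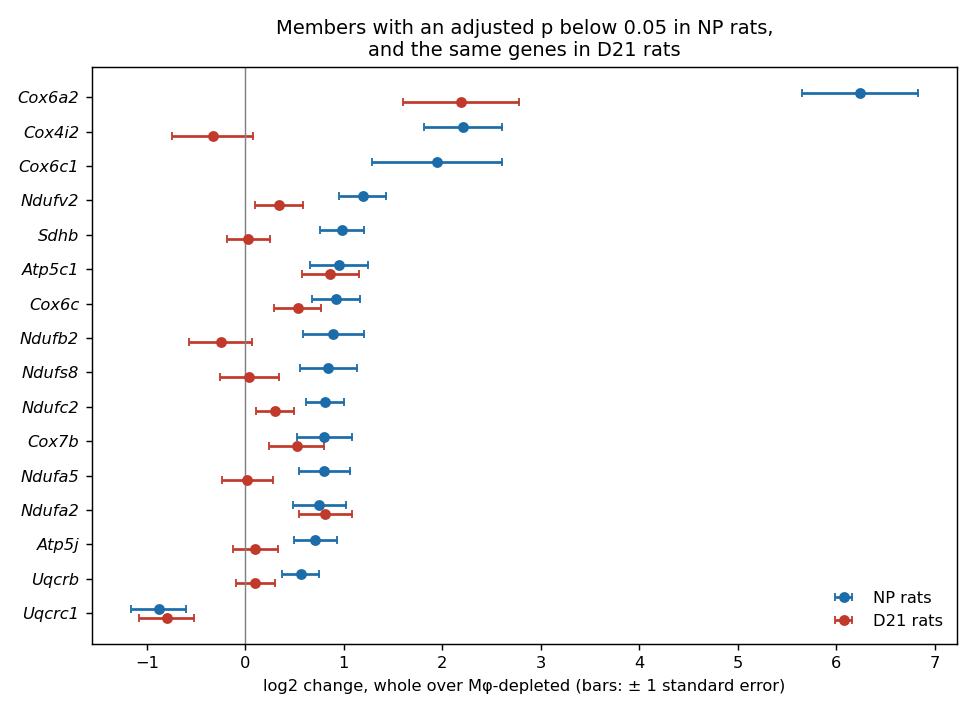
Log2 difference between whole and Mφ-depleted cervix of the 16 genes with an adjusted p below 0.05 in NP rats, with the same difference in D21 rats, ± 1 SE. In NP rats 15 lie above 0 and Uqcrc1 below, and in D21 rats, where Cox6c1 was not tested, Cox6a2 alone of these passed a threshold.

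The third comparison, whole against Mφ-depleted cervix of D21 rats, gave no common direction. Of 81 members tested 1 was higher in whole cervix by p and fold, Cox6a2 (background 10%), and 1 was lower, Ndufb10 (background 7.72%). By the adjusted p, 2 were higher, Cox6a2 and Ndufaf1 (background 11.9%), and 1 was lower, Ndufb10 (background 10.5%). The median was -0.05 (0.24 with quantile normalization and 0.12 with normexp), that of all genes -0.06, and 37 members lay above 0 and 44 below. The groups did not overlap for 13 members that were higher and 4 that were lower, 21% of the members against 44.5% of all genes (21.3% higher and 23.2% lower). The medians by complex were -0.02, -0.01, -0.01, -0.19 and -0.10 for complexes I to V.

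Cox6a2 read -0.12, -0.66 and -0.30 in D21 whole cervix and -2.24, -1.15 and -4.28 in D21 depleted cervix, where 2 of 3 arrays were well above background. The depleted arrays were all lower but spread widely, and the difference was 2.19 ± 0.59 (4.58-fold, adjusted p = 0.0254, 0.00697 to 0.409 over the alternatives). Ndufb10, an accessory subunit in the membrane arm of complex I, read 2.78, 2.54 and 2.40 in whole and 4.03, 4.38 and 3.00 in depleted cervix, without overlap, a difference of -1.23 ± 0.33 (2.34-fold lower, adjusted p = 0.0262, 0.00112 to 0.805 over the alternatives). Ndufaf1, an early assembly factor of complex I, read -0.98, -1.05 and -1.19 against -2.46, -2.15 and -1.49 (0.96 ± 0.26, adjusted p = 0.0244, 0.00152 to 0.762 over the alternatives, below 0.05 in 6 of 17).

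Among genes measured on all arrays, the widest differences within the other complexes were 0.86 for Atp5c1, -0.75 for Atp5g2, -0.72 for Cox4i1, 0.53 for Cox6c, -0.80 for Uqcrc1, 0.31 for Uqcrc2 and 0.25 for Sdha, none past a threshold. No complex II gene passed a threshold: Sdhb read 2.24, 2.39 and 2.31 in whole and 2.47, 2.43 and 1.94 in depleted D21 cervix, and Sdhd 2.47, 2.54 and 2.68 against 2.81, 3.03 and 2.11, with overlap in both. The second Ndufb10 probe differed by -0.67 (limma p adjusted over probes = 0.174). D21 depleted rat 4, scanned on the day of the whole-cervix arrays and on another day than the other depleted rats, decided much here: without it 4 members were higher and 18 lower by the adjusted p and the median was -0.25, and against it alone, within that day, the median was 0.22, Cox6a2 differed by 3.91 and Ndufb10 by -0.43. With slide as a block neither gene passed, at 2.72 for Cox6a2 and -0.66 for Ndufb10. As no slide held both D21 whole and D21 depleted arrays, that fit linked them only through NP arrays and cannot decide this. By the adjusted p 0 members were higher in 4 of the 6 fits that left out 1 rat (D21 depleted 1, D21 whole 5, 6 or 7). By p and fold the Cox6a2 call was lost without D21 whole rat 5 or 7 (adjusted p = 0.0797 and 0.0794, 0.00697 to 0.409 over the alternatives), and the Ndufb10 call without D21 depleted rat 1 or 2 or D21 whole rat 6 or 7.

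Among depleted samples, D21 against NP, the members as a group did not shift. Of 80 tested 2 were higher at D21 by p and fold, Cox8b and Cox4i2 (background 5.44%), and 0 were lower (background 2.07%), with 3 higher and 1 lower at an unadjusted p below 0.05 and 0 called by the methods' t-test. The adjusted p gave the same 2 higher (background 3.63%) and 0 lower (background 0.978%). This count of 2 was not stable and ran from 0 to 6 over the alternatives. It was 0 with no filter on background or without NP depleted rat 5, and 6 without D21 depleted rat 4. By the methods' t-test the adjusted p was 0.593 for Cox8b and 0.589 for Cox4i2. The median was 0.00 (-0.30 with normexp and -0.19 with quantile normalization), that of all genes 0.02, with 40 members above and 40 below 0. Groups did not overlap for 3 members, all higher at D21 (Cox8b, Cox4i2 and Ndufc2), 3.75% of the members against 17.1% of all genes (9.53% higher and 7.57% lower).

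Cox8b, the heart and skeletal muscle isoform of subunit 8, which brown fat also uses, read -4.57, -2.93 and -4.89 in NP depleted cervix, where 2 of 3 arrays were well above background, and -0.19, 0.20 and -2.38 in D21 depleted cervix. All D21 arrays were higher, and the difference was 3.34 ± 0.70 (10.1-fold, adjusted p = 0.0216). In whole cervix it read -3.44, -2.0 and -2.26 in NP, with 2 of 3 arrays well above background, and -1.53, -0.43 and -0.62 at D21, also without overlap but short of the threshold (1.70 ± 0.71, adjusted p = 0.182). Cox4i2 read -0.72, -0.76 and 0.30 in NP depleted and 1.49, 2.63 and 0.96 in D21 depleted cervix, a difference of 2.09 ± 0.40 (4.24-fold, adjusted p = 0.0141). Within the slide of 1 D21 and 2 NP depleted arrays Cox8b and Cox4i2 differed by 3.95 and 3.37, and within the slide of 1 of each by 2.51 and 0.66. Over those slides the median of the members was 0.36 and -0.29.

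An interaction term tested whether pregnancy altered the difference between whole and depleted cervix. Of 82 members 2 had a negative interaction by both thresholds, Cox4i2 and Cox6a2, whose difference was smaller at D21. The background was 4.99% by p and fold and 1.95% by the adjusted p. A positive interaction was found for 0 members (background 2.45% and 0.44%). At an unadjusted p below 0.05, 0 interactions were positive and 7 negative. A negative interaction is not always a smaller difference, as Ndufaf3, among these, differed by -0.84 at D21 and 0.19 in NP rats. Cox4i2 differed by -0.33 at D21 and 2.21 in NP rats, an interaction of -2.54 ± 0.58 (adjusted p = 0.0455, 0.00839 to 0.241 over the alternatives). For Cox6a2 the interaction was -4.04 ± 0.84 (adjusted p = 0.0334, 0.00142 to 0.114), a size that rests on a signal not well above background in NP depleted cervix. The adjusted call was not stable: 0 members passed the adjusted p with slide as a block, with no filter on background, or in 9 of the 12 fits that each left out 1 rat (NP depleted 5 or 6, D21 depleted 1, NP whole 8, 9 or 10, D21 whole 5, 6 or 7), and 7 passed without D21 depleted rat 4. By p and fold the Cox4i2 interaction was lost with slide as a block (-2.65) and the Cox6a2 interaction in none of its alternatives. No slide held both D21 whole and D21 depleted arrays, so the fit with slide as a block linked them only through NP arrays. That fit therefore cannot decide whether the calls are stable. The comparisons share arrays, so their values for a gene are not independent of each other.

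The second isoforms of complex IV subunits passed thresholds where the common ones did not, although the difference between isoforms was not tested. The common isoforms Cox4i1, Cox6a1 and Cox8a were well above background on every array and passed no threshold in any comparison: for D21 against NP whole cervix they differed by -0.14, -0.46 and -0.38, and for whole against depleted NP cervix by -0.28, 0.02 and 0.45. Cox4i1 read 5.60, 5.73 and 5.66 in NP whole, 5.57, 5.32 and 5.68 in D21 whole, 5.91, 6.04 and 5.88 in NP depleted and 6.33, 7.10 and 5.31 in D21 depleted cervix. Its partner Cox4i2 was lowest in NP depleted cervix, at -0.39 ± 0.60 (SD, n = 3) against 1.82 ± 0.08, 1.36 ± 0.21 and 1.69 ± 0.85 in NP whole, D21 whole and D21 depleted cervix. Cox6a2 was highest in NP whole cervix, then in D21 whole cervix, and lower in both depleted groups, whose order rests on signals partly not above background. The NP and D21 whole arrays did not overlap, although D21 against NP whole cervix missed the threshold (-1.41 ± 0.59, adjusted p = 0.184). The order for Cox8b was D21 depleted, D21 whole, NP whole and NP depleted cervix, and the first and last neighbouring pairs overlapped.

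**Figure D4:**
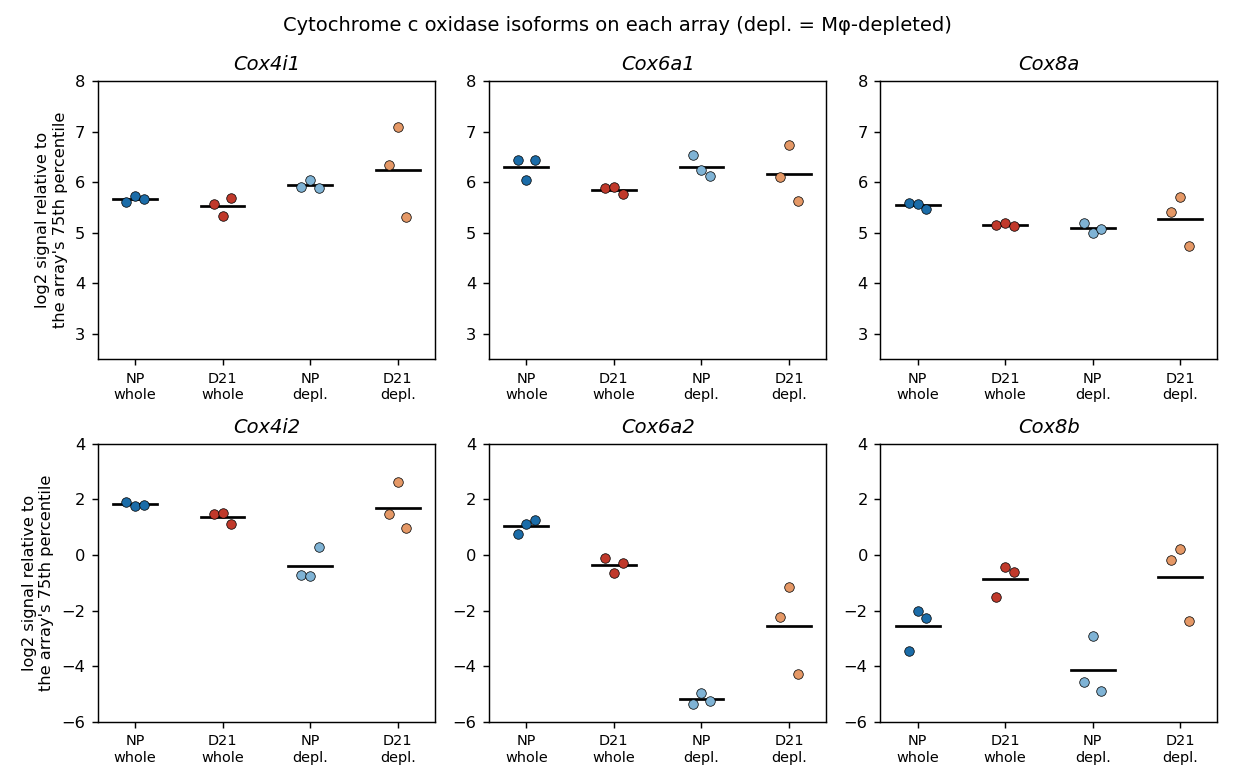
Log2 signal relative to the array's 75th percentile of the common (upper row) and the second (lower row) isoforms of complex IV subunits 4, 6a and 8 on each of the 12 arrays, with group means as lines. The rows have different vertical ranges. Mean Cox6a2 runs from 1.05 in NP whole to -5.18 in NP depleted cervix, while Cox6a1 has values of 5.62 to 6.74 over all arrays.

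By their brightest probes the other isoform sets passed no threshold in any comparison. Cox7a2 and Cox7a2l differed by -0.33 and -0.02 for D21 against NP whole cervix and by 0.67 and -0.27 for whole against depleted NP cervix, where the second Cox7a2 probe passed both thresholds (1.01 ± 0.25, limma p adjusted over probes = 0.0105). The genes for the proton-carrying c subunit of the ATP synthase, Atp5g1, Atp5g2 and Atp5g3, differed by -0.47, -0.34 and -0.14 in the former and by -0.52, -0.42 and 0.13 in the latter. Ndufa4 differed by -0.52 and 0.45.

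The part of each 60-base probe nearest the 3′ end of its target, bases 31 to 60, is shown for the isoform pairs and for both called complex I genes, because isoforms can be told apart only if their probes do not share sequence. Capitals mark the hexamer AATAAA, the usual polyadenylation signal, where it occurs.
Cox4i1: gtccatgttAATAAAtgaccagtttacgtg
Cox4i2: AATAAAagcagcctgcattgttctgcctgc
Cox6a1: tctttcctttatcagatggtgaccattact
Cox6a2: agttccaagcgcAATAAAggtgtgaaactt
Cox8a: gcttgatggggtccccctttgtaacaataa
Cox8b: gcgcatccctgagaggccaattaaacgctt
Ndufb10: gctgaAATAAAatgacaggcctggccatca
Ndufv2: actactacgaggatctgacacccaaggata
By the array's annotation on rat build rn4, the Cox4i1 probe lies at chr19:51030141-51030200 (+), Cox4i2 at chr3:143114177-143114236 (+), Cox6a1 at chr12:42533025-42533084 (+), Cox6a2 at chr1:187464580-187464639 (-), Cox8a at chr1:209886158-209886217 (-), Cox8b at chr1:201057325-201057384 (-) and Ndufb10 at chr10:13977309-13977368 (-). The Ndufv2 probe spans chr9:104854294-104856104 (-), longer than its 60 bases. Over the 109 member probes 3 pairs shared a run of 15 or more bases, all within 1 gene (Cox6c1, Uqcr and Atp5l), and 0 pairs did so between genes. The median GC content of the member probes was 45%, as it was over all probes.

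Promoters of the common and the muscle isoforms are shown from 250 bases before to 30 bases after the RefSeq start, on build GRCr8, because Cox6a2 and Cox8b passed thresholds that Cox4i1 and Cox8a did not. Cox4i2 and Cox6a1 had no promoter in the RefSeq table, so only Cox8a and Cox8b form a pair of isoforms here. Capitals mark matches to the motifs of GABPA, YY1 and MEF2, to the E-box and to the TATA box, each on either strand. Cox4i1 holds a pair of GABPA matches and an E-box, Cox8a a pair of GABPA matches and 1 YY1 match, Cox6a2 an E-box and a MEF2 match, and Cox8b a pair of E-boxes and a TATA box.
Cox4i1: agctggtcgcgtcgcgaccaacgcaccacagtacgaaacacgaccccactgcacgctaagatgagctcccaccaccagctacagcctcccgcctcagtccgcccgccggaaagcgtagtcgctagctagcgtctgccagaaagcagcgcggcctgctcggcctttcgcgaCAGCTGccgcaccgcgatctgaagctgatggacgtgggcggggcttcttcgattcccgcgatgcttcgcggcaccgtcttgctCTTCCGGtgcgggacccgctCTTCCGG
Cox6a2: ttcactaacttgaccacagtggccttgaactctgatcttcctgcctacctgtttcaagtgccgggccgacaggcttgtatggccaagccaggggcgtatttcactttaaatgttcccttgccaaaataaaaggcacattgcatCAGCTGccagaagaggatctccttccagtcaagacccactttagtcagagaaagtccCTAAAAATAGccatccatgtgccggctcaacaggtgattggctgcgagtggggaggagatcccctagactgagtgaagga
Cox8a: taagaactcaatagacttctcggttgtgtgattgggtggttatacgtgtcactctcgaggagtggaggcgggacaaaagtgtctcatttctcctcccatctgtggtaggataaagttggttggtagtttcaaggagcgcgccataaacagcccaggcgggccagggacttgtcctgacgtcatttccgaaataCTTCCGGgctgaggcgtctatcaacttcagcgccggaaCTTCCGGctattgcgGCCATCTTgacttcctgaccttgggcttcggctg
Cox8b: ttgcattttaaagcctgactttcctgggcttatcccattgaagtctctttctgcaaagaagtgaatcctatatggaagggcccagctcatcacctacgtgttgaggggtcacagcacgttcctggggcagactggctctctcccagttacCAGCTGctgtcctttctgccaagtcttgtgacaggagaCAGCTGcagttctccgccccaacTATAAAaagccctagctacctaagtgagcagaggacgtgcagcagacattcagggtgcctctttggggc
They lie at chr19:65630133-65630412 (+) for Cox4i1, chr1:192219687-192219966 (-) for Cox6a2, chr1:213833594-213833873 (-) for Cox8a and chr1:205408244-205408523 (-) for Cox8b. Promoters of 72 of the 87 members were in the RefSeq table. Each motif was searched on both strands over 300 bases. The NRF1 motif occurred in 19.4% of the member promoters and in 4.27% of all 33469. The GABPA motif, CCGGAAG, occurred in 30.6% and 8.76%. The YY1 motif, AAGATGGC, occurred in 19.4% and 3.19%. The SP1 motif, GGGCGG, occurred in 45.8% and 33.1%. The TATA box, TATAAA, occurred in 6.94% and 14.2%. The MEF2 motif occurred in 4.17% and 3.85%. The E-box, CAGCTG, occurred in 16.7% and 15.1%, and it and the MEF2 motif were added after the Cox6a2 promoter had been read.

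The NRF1, GABPA and YY1 motifs are textbook sites of regulators of respiratory genes, and 41 of the 72 promoters held at least 1 of them. Members with such a match differed by a median of -0.33 (n = 40) for D21 against NP whole cervix and of 0.41 (n = 40) for whole against depleted NP cervix. Members without one differed by -0.38 (n = 28) and 0.28 (n = 26). A match is a string of letters in a window and was not tested as a site.

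Markers of muscle and fat were measured beside the isoforms. The mean signal of 5 of the 10 listed skeletal muscle genes ranged from 0.46 to 1.41 in NP whole, from -1.60 to -1.26 in D21 whole, from -4.25 to -3.52 in NP depleted and from -3.14 to -2.24 in D21 depleted cervix, with the whole-cervix groups in the same order as for Cox6a2. Of these genes 5 of 5 were higher in NP whole than in NP depleted cervix and 4 of 5 were lower in D21 than in NP whole cervix by p and fold. The adult myosins Myh2 and Myh4 were well above background on 0 of 12 arrays, and Ckm and Actn3 on 3. Myl11, a fast myosin light chain gene on the list but not among the 5, was well above background on 5 arrays and did not follow that order, at -5.41, -5.32 and -4.68 in NP whole and -4.30, -4.13 and -5.24 in NP depleted cervix. The 10 smooth muscle genes ranged from 4.40 to 4.84 in NP whole, from 3.62 to 4.04 in D21 whole and from 0.92 to 2.04 in D21 depleted cervix. Their whole-cervix groups were in the same order as for Cox6a2 too, and 10 of 10 were higher in NP whole than NP depleted cervix. Of the brown fat markers, Cidea and Dio2 had mean signals from -1.33 to -0.82 in NP whole, from -0.29 to -0.02 in D21 whole, from -4.53 to -2.92 in NP depleted and from -1.19 to -0.80 in D21 depleted cervix, while Ucp1 and Ppargc1a were each well above background on 1 array. Elovl3, well above background on 4 arrays, read -5.41, -5.31 and -7.10 in NP whole and -2.41, -4.18 and -5.20 in NP depleted cervix, higher where Cidea and Dio2 were lowest. General fat cell markers (4 of 7 listed) had mean signals from 0.38 to 2.40 in NP whole and from 0.08 to 1.09 in D21 whole cervix. They ranged from -2.74 to -2.16 in NP depleted and from -2.14 to -1.32 in D21 depleted cervix. By p and fold 3 of 4 tested were higher in whole cervix of NP rats and 1 of 3 in D21 rats. Fibroblast markers (10 genes) ranged from 3.98 to 4.37 over the whole-cervix arrays, from -0.98 to 0.30 in NP depleted and from 2.03 to 2.99 in D21 depleted cervix. The mean of 10 epithelial markers was not lower after depletion, at 3.34 to 3.58 in NP whole, 4.42 to 4.86 in D21 whole, 4.51 to 5.18 in NP depleted and 5.01 to 5.28 in D21 depleted cervix. By p and fold 1 of these genes was higher and 3 were lower in D21 whole than depleted cervix, and 0 and 5 in NP rats. Immediate early genes, which tissue handling raises, ranged from -1.11 to -1.03 in NP whole, from -0.73 to -0.59 in D21 whole, from 1.28 to 1.87 in NP depleted and from 2.59 to 2.87 in D21 depleted cervix. The part of these cells and of handling in the differences of Cox6a2, Cox4i2, Cox8b and the other members was not tested. None of 8 housekeeping genes passed a threshold in any comparison. Their median was -0.21 for D21 against NP whole cervix, where the members had -0.35 and by their brightest probes passed none either.

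**Figure D5:**
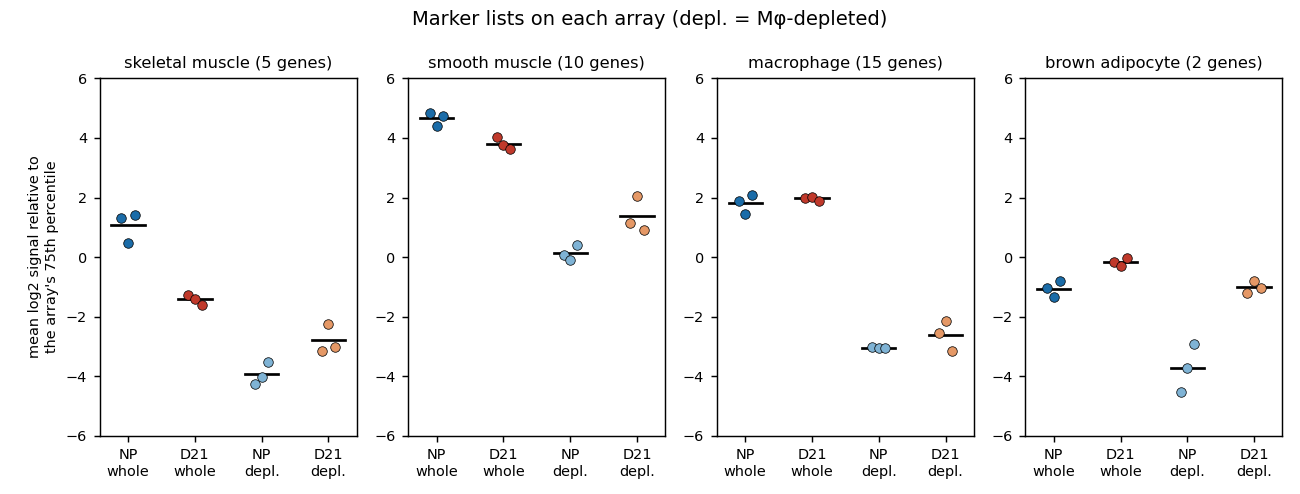
Mean log2 signal of marker genes for skeletal muscle (5 genes), smooth muscle (10), Mφs (15) and brown adipocytes (2) on each of the 12 arrays, relative to the array's 75th percentile. The whole-cervix arrays lie above the depleted arrays for the first 3 lists.

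Genes around the complexes differed mainly between whole and depleted cervix, where by the adjusted p 17% of all genes were higher and 15.8% lower in NP rats and 11.9% and 10.5% in D21 rats. Among 26 assembly factors tested, 0 passed either threshold for D21 against NP whole cervix (median -0.24). In NP rats Ttc19 and Tmem70, assembly factors of complexes III and V, were higher in whole cervix by the adjusted p (1.06 and 1.05), and Ecsit and Atpaf2, assembly factors of complexes I and V, were lower (-0.79 and -0.67). In D21 rats 3 were higher by the adjusted p (Atpaf1, Tmem70 and Ttc19, by 1.41, 1.24 and 1.22) and 4 were lower (Coa3, Lrpprc, Ecsit and Atpaf2, by -1.29, -1.06, -1.03 and -0.96). Among 11 other subunits and carriers 1 passed, Etfa, which feeds electrons from fatty acid oxidation to ubiquinone, in D21 whole over depleted cervix (1.30, adjusted p = 0.0432).

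Among 6 genes for ADP/ATP carriers and uncoupling proteins, the uncoupling protein genes Ucp3 and Ucp2 were higher in D21 than NP whole cervix. Ucp3 was higher at least 5.04-fold, as its NP signal was not well above background (limma adjusted p = 0.000386). Ucp2 was higher by a log2 difference of 2.42 (limma adjusted p = 0.011). Slc25a4, the muscle ADP/ATP carrier, was lower (-0.96, adjusted p = 0.0269). Ckmt1, a mitochondrial creatine kinase, was lower in whole than in depleted cervix, with log2 differences of -2.23 in NP rats and -1.49 in D21 rats.

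Among regulators of mitochondrial biogenesis 0 passed for D21 against NP whole cervix (median -0.08). In NP rats Tfb1m and Gabpa were higher in whole cervix by the adjusted p (1.25 and 0.71), and Polrmt, the mitochondrial RNA polymerase, and the coactivator and receptor genes Pprc1, Ppargc1b and Esrra were lower (-1.69, -1.13, -1.97 and -0.74). In D21 rats Yy1 was higher (1.14), and Twnk, Ppargc1b, Polrmt and Esrra were lower (-2.69, -2.30, -1.04 and -0.87). Of 16 TCA cycle genes, 0 passed for D21 against NP whole cervix (median -0.22), 1 was higher in whole over depleted cervix of NP rats (Sucla2, 0.76) and 2 in D21 rats (Pdhb, 1.05, and Sucla2, 0.71) by the adjusted p.

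Of 17 glycolysis genes, 0 passed for D21 against NP whole cervix (median 0.02). In NP rats Eno2 was higher in whole than depleted cervix by the adjusted p (2.38) and Aldoc, Eno1 and Gpi were lower (-1.34, -1.04 and -0.85). In D21 rats Eno1, Aldoc and Pfkm were lower by the adjusted p (-1.28, -1.22 and -0.78). The glycolysis list had medians of -0.73 and -0.66 for whole against depleted cervix of NP and D21 rats, where the oxidative phosphorylation members had 0.38 and -0.05. Of 16 genes for mitochondrial channels, import and fusion, 0 passed for D21 against NP whole cervix (median -0.20). Vdac3, an outer membrane channel, was higher by the adjusted p (1.06) and its relative Vdac1 lower (-0.87) in whole than depleted cervix of NP rats. In D21 rats Mfn1, which fuses mitochondria, was higher (1.74), and Vdac1 and the chaperonin gene Hspd1 were lower (-0.87 and -1.12).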

How the data were processed

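Each of the 12 arrays held RNA of 1 rat, in 4 groups of 3. Images of the scanned arrays were processed by the authors with Agilent Feature Extraction 9.5.3.1. The deposited scanner files give the processed signal of each spot as an intensity with background and outlier flags. The deposited table of the whole series holds the authors' GeneSpring values, a ratio of each signal to the 75th percentile of the array, and served as an alternative. Outlier spots were left out, spots of a probe were averaged, and log2 intensity minus the log2 of the array's 75th percentile was used. Of 30367 probes 17328 (57.1%) were matched to RefSeq by accession and kept current symbols, and others kept the array's names. Each gene was represented by its brightest probe. Genes entered a comparison if they were well above background throughout either group, that is on all 3 of its arrays. No other column of per-sample values was used.

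A limma fit (version 3.58.1, R 4.3.3, with the data.table package, 1.17.8) over all genes, with a mean for each group, gave the tests, with Benjamini-Hochberg adjustment over all genes tested. The thresholds were the methods' unadjusted p below 0.01 with 2-fold, and an adjusted p below 0.05 at any fold. The methods' t-test was run on the same values. The fit was tested on simulated data. Alternatives were normexp background correction (offset 50), quantile normalization, another set of probes behind the percentile, other filters, the mean of probes, slide or scan day as a block, and leaving out each rat. With 3 arrays a group, the number of arrays limits the precision.

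Named members were those called by p and fold, the extremes of each complex, the Sdh genes and the isoform sets. Members past the adjusted threshold were also named, a choice made after their values were seen. Of each list the genes with the smallest p were named. The members and lists were chosen with earlier results of these data known. Sequences were read with Biostrings 2.70.1 from the scanner files and RefSeq tables, and figures were drawn with Python 3.11.15, pandas 2.3.3 and matplotlib 3.10.9.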

Additional observations from a re-analysis of the deposited data

Results flagged for a closer look

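A pair of isoform genes of complex IV differed between pregnant and nonpregnant rats in how their signal compared between whole and Mφ-depleted cervix, by the limma interaction test. For Cox4i2 the log2 difference between whole and depleted cervix was -0.33 at D21 and 2.21 in NP rats, an interaction of -2.54 (adjusted p = 0.0455). It was higher in whole cervix on 3 of 3 NP arrays, whereas the D21 groups overlapped. For Cox6a2 the interaction was -4.04 (adjusted p = 0.0334), from 2.19 at D21 and 6.24 in NP rats, and the NP depleted signal was well above background on 0 of 3 arrays. By the adjusted p 0 members passed the interaction with slide as a block, with no filter on background, or in 9 of 12 fits that left out 1 rat, and the adjusted p ranged over the alternatives from 0.00839 to 0.241 for Cox4i2 and from 0.00142 to 0.114 for Cox6a2. The fit with slide as a block linked D21 whole and D21 depleted arrays only through NP arrays, as no slide held both. Of the 10 listed skeletal muscle genes 5 were tested, and 5 of 5 had a smaller difference at D21 by p and fold. In the same interaction test 6 of 10 smooth muscle and 5 of 10 fibroblast genes did too, against a negative interaction in 4.99% of all genes. The part of these genes in the result was not tested.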

How the results depend on the processing

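Of the counts and medians over the members, 210 values under alternatives stayed near the main one and 49 moved, and no direction called was turned; for single genes 1585 kept their call, 27 gained one and 26 lost one. For D21 against NP whole cervix (0 higher and 0 lower by p and fold), the methods' t-test gave 1 lower, normexp 1 higher and 1 lower, scan day as a block 2 lower, and leaving out a rat 0 to 1 lower. For whole against depleted D21 cervix (1 and 1), the t-test, adjusted or not, gave 0 and 0, normexp 0 lower, quantile normalization 3 higher and 0 lower with a median of 0.24, the percentile over probes detected throughout 3 higher, no filter 2 lower, the filter on every array 0 higher, slide as a block 0 and 0, scan day as a block 0 lower, and leaving out a rat 0 to 3 higher and 0 to 6 lower with a median of -0.25 to 0.11. The Ndufb10 and Cox6a2 calls of that comparison were lost in 11 of 17 and 7 of 16 alternatives. For whole against depleted NP cervix (3 and 0), the adjusted t-test gave 1 higher, the percentile over detected probes 5, slide 5 and scan day 9 higher, no filter 1 lower, and leaving out a rat 3 to 9 higher (6 without NP depleted rat 5 and 9 without rat 7) and 0 to 1 lower. For D21 against NP depleted cervix (2 and 0), the t-test gave 0 higher with and without adjustment, the filter on every array 1 higher, no filter 1 lower, normexp a median of -0.30, and leaving out a rat 0 to 1 lower. For the interaction (0 and 2), the filter on every array and slide as a block each gave 1 lower, normexp and quantile normalization medians of -0.15 and -0.07, and leaving out a rat 2 to 6 lower by p and fold (5 without NP depleted rat 7 and 6 without D21 depleted rat 4). With no filter the median over all genes was -0.27 for D21 against NP whole cervix (-0.08 before), 0.13 and 0.18 for whole against depleted cervix of D21 and NP rats, and -0.17 for D21 against NP depleted cervix. It also moved by over 0.1 with the percentile over detected probes, from -0.06 to 0.13 for whole against depleted D21 cervix, from 0.02 to -0.14 for D21 against NP depleted cervix and from -0.05 to 0.08 for the interaction. The causes were not tested. No paired analysis was possible because the groups compared share no replicate numbers. Signals not well above background limit the sizes given for Cox6a2, Cox8b and Cox6c1.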
